A study of Mus musculus with 2 samples.

Results

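Cells of mouse knee articular cartilage that carried Wif1 together with Omd, Cytl1 and related genes were described in 2 single-cell RNA libraries. The libraries came from wild-type mice, 1 after sham surgery and 1 after DMM, the surgical destabilisation of the medial meniscus that leads to osteoarthritis. Each library pooled 3 mice, and the labels used here give neither strain, age nor time after surgery. Live cells without CD45, Ter119 and CD31 had been sorted, these being surface markers of blood, erythroid and endothelial cells. The labels call the sorted cells superficial cells of knee cartilage, and the protocol released periosteal and epiphyseal cartilage cells together with collagenase and dispase. Counts are of UMIs, the molecular tags that mark single captured RNA molecules.

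A cell was a member if it passed the quality limits (at least 500 genes, at most 10% mitochondrial UMIs) and met 6 conditions on measured genes. At least 3 of the 6 genes Wif1, Gdf6, Omd, Msmp, Frzb and Cytl1 had a UMI, among them Wif1 or Gdf6. Col2a1 reached 500 CPM (CPM, the UMIs of the gene scaled to a common total per cell), and no UMI came from Clic5 or Htra4, genes of synovial lining cells. Fewer than 2 of the hypertrophic genes Ihh, Panx3, Nrgn and Grb14 were detected. Casr, Chst3 and Erg together had at most 1 UMI, and Serpina1e, Inhba and Col10a1 together at most 2. These limits were aimed at 2 kinds of superficial chondrocytes but did not keep out all of them. Of the clusters described below, the Casr-led one held 24 members and the Serpina1e-led one 15. The rule gave 282 of 9992 kept sham cells and 245 of 9889 kept DMM cells, 527 of 19881 in all. Since measured genes chose the cells, levels of those genes describe the selection and support nothing further.

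Articular cartilage is built by chondrocytes, whose matrix holds type II collagen (Col2a1) and the proteoglycan aggrecan (Acan). Lubricin, the product of Prg4, is made at the joint surface. Fibrocartilage, as in the meniscus and at tendon insertions, mixes type II with type I collagen (Col1a1, Col1a2). Wif1 and Frzb encode secreted inhibitors of Wnt signalling, which in joints bears on whether cells keep a cartilage or take a bone-forming program. Gdf6 encodes a growth factor of the BMP family needed for joint formation. Omd encodes osteomodulin, a small leucine-rich proteoglycan of mineralised matrix. Cytl1 encodes a secreted protein that is abundant in cartilage, and Msmp a small secreted protein.

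On GRCm38 (the genome of mm10), Wif1 lies at chr10:121033960-121100650 on the plus strand and Omd at chr13:49582462-49592822 on the plus strand. Cytl1 lies at chr5:37735519-37739820 (plus) and Gdf6 at chr4:9844372-9862345 (plus). Frzb lies at chr2:80411970-80447625 (minus) and Msmp at chr4:43583216-43584494 (minus). These are whole gene spans, and the 3' tag counts do not tell which exon a UMI came from.

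The median member had 11552 UMIs in sham (884 to 57721) and 9310 in DMM (968 to 48836), against 8284 and 8046 over all kept cells. The doublet caller Scrublet marked 19 sham and 10 DMM members. Of all barcodes, 24 occurred in both libraries, 17 of them among kept cells, and 1 member had such a barcode. Since each surgery is 1 library, differences between sham and DMM carry no test and no p-value. Intervals in brackets are 95% intervals of counting error alone, and they leave out variation between cells, mice and preparations.

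Wif1 was the gene that admitted nearly every member. It had a UMI in 99.6% of members in both libraries, and Gdf6 in only 5.67% of sham and 5.71% of DMM members. Exactly 1 member per library had Gdf6 without Wif1, and 15 sham and 13 DMM members had both. The commonest combination was Wif1, Omd and Cytl1 without the other 3 genes, in 125 sham and 118 DMM members. Exactly 3 of the 6 genes were detected in 181 sham and 149 DMM members, 4 in 81 and 82, 5 in 19 and 12, and all 6 in 1 and 2.

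The levels of these genes were unevenly spread over the cells. Summed over members, Wif1 stood at 824 CPM [793, 855] in sham and 1244 [1201.5, 1288.5] in DMM, with cell medians of 501 and 548. Cytl1 was the most abundant of the 6 at 7463 CPM in sham and 9473 in DMM, while its cell medians were 2145 and 2664. Omd stood at 438 CPM [416, 462] in sham and 575 [546, 605] in DMM, and had a UMI in 78.7% and 89.0% of members. Frzb stood at 92.3 and 111 CPM and Gdf6 at 14.6 and 11.4 CPM. Msmp stood at 2602 CPM in sham and 552 in DMM, yet only 30.1% and 17.6% of members had a UMI of it. A single sham cell held 49.3% of all Msmp UMIs of sham members, and the highest DMM cell 29.8%. Most members of both libraries therefore had Wif1, Cytl1 and Omd, and Msmp came from few cells.

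**Figure D1:**
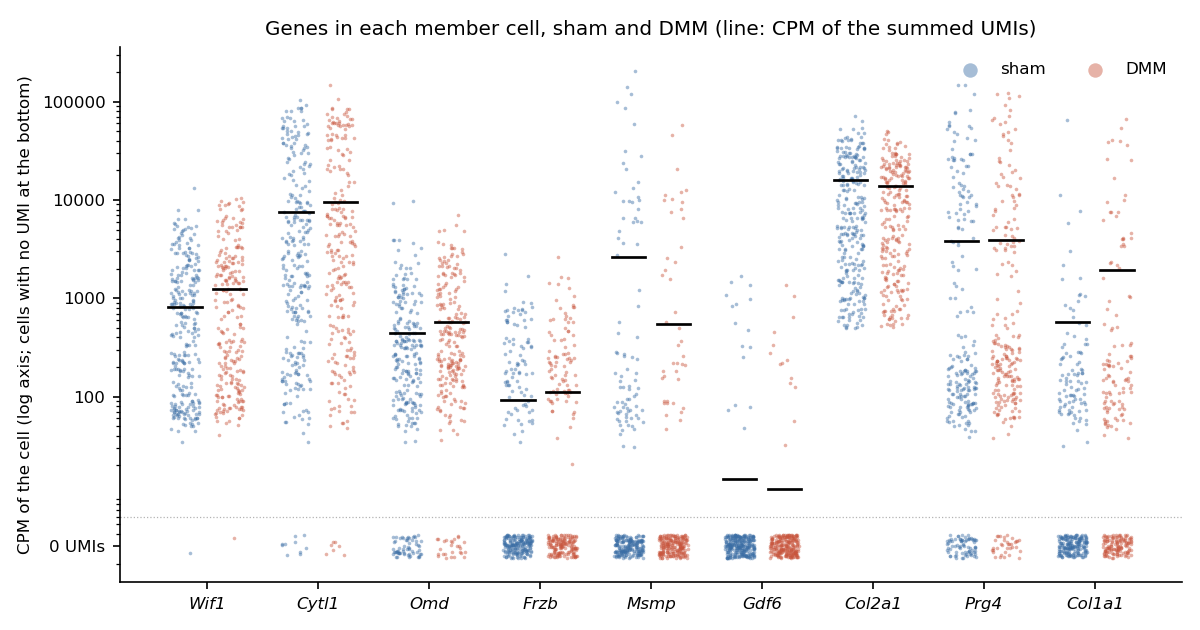
Level of 9 genes in each member cell (points; vertical log axis in CPM of the cell, cells without a UMI at the bottom) in the sham and DMM libraries; black lines mark the CPM of the summed UMIs. Wif1 is present in 99.6% of cells and Gdf6 in 5.67% and 5.71%, and the line for Msmp and Col1a1 is set by few high cells.

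The lowest levels were those of single molecules. Exactly 1 UMI of Wif1 was present in 79 sham members (28.0%) and 54 DMM members (22.0%), and 5 or more in 142 and 120. The comparison for free RNA was a set of 1850 sham and 1045 DMM cells with at least 3 of 7 erythroid genes, with medians of 8332.5 and 10044 UMIs. Scrublet called 176 sham and 96 DMM cells of this set doublets, and free RNA was not told apart from doublets in its levels. A UMI of Wif1 was present in 7.46% [6.30, 8.75] of all sham cells of the set and 6.79% [5.34, 8.49] of all its DMM cells. In sham, 1150 UMIs of Wif1 lay in 138 cells of the set. The conditions on the 6 markers alone, without Col2a1 and the rest, were met by 60 sham and 29 DMM erythroid cells. After thinning every cell to 4000 UMIs, with 24 sham and 15 DMM members left out as shallower, Wif1 had a UMI in 72.5% [66.6, 77.8] and 74.3% [68.2, 79.9] of members. In thinned erythroid cells it was 4.95% and 3.26%. Cytl1 was a weak marker on this scale, with a UMI in 82.2% and 86.1% of thinned members and 39.3% and 33.9% of thinned erythroid cells.

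Across the edge of the rule the level of Wif1 differed by degrees. Cells that met all other conditions with only 2 of the 6 genes numbered 153 in sham and 104 in DMM, and their Wif1 level was 308 and 402 CPM. Members with 3 genes had 640 and 763 CPM of Wif1, and members with 4 or more had 1183 and 2079 CPM. Omd stood at 24.2 and 60.5 CPM just outside, 325 and 410 CPM with 3 genes, and 661 and 859 CPM with 4 or more. Since Omd is among the genes counted, this order follows from the count. It had a UMI in 7.19% and 11.5% of cells just outside, and in 73.5% and 84.6% of members with 3 genes. Col2a1 lay between 500 and 1000 CPM in 39 sham and 31 DMM members, and 41 and 38 cells failed only by a Col2a1 level of 250 to 500 CPM.

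The name fibrocartilage-like was only partly carried by the data. Members had the cartilage genes: Col2a1 stood at 15805 CPM in sham and 13952 in DMM, Acan at 2462 and 2216, and Sox9, the master transcription factor of chondrocytes, at 1677 and 1545. Comp and Chad, matrix proteins shared by cartilage and tendon, stood at 3466 and 4013 CPM in sham and at 4326 and 4272 in DMM. The genes of type I collagen, the defining fibrous component, differed. Col1a1 was at 0 UMIs in the median member of both libraries. It had a UMI in 34.8% of sham and 46.5% of DMM members, against 32.1% and 42.9% of the erythroid cells. Its summed level was 579 CPM [553, 605] in sham and 1928 [1875, 1983] in DMM, of which the highest cell held 72.9% and 26.4%. Outside a Col1a1-led group of 8 sham and 17 DMM members, Col1a1 stood at 75.2 and 405 CPM, beside 317 and 370 CPM in the erythroid set. In cells of fibrous tissue with Angptl7, Slurp1 and Nox4, it stood at 4400 and 5734 CPM. Col1a2, in contrast, had cell medians of 249 and 351 CPM and a UMI in 70.2% and 74.7% of members, against 26.5% and 33.8% of the erythroid cells. Its summed level was 938 and 1961 CPM in members and 258 and 291 CPM in the erythroid set. Without the Col1a1-led group and a haemoglobin-led group described below, it was 652 and 992 CPM in members, still above the erythroid set. Among the chondrocyte sets described below, the Casr set had 722 and 2377 CPM of Col1a2. The Serpina1e set had 258 and 310 CPM and the Pcp4 set 112 and 106.

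Of the tendon markers, 1 stood well above the others. The list of 6 summed to 218 CPM in sham and 214 in DMM, most of it Thbs4, a matrix thrombospondin, at 191 and 195 CPM. Tnmd, the tendon membrane protein tenomodulin, stood at 0.911 CPM in sham and 1.18 in DMM. The tendon transcription factors Scx and Mkx stood at 7.29 and 13.7 CPM in sham and at 3.92 and 11.0 in DMM. In the Casr set described below the list summed to 294 and 355 CPM, more than in members. It summed to 117 and 125 CPM in the Serpina1e set and to 64.2 and 70.4 in the Pcp4 set. Col1a2 and the tendon list were thus not particular to members. Because Col1a1 and most tendon markers were low while Col1a2 and Thbs4 were not, the cells are called Wif1 and Omd cells here, after the genes that led the rule.

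Among marker lists of cell types other than chondrocytes and fibrocartilage, the erythroid and osteoblast lists had the highest sums. The 8 erythroid genes summed to 5200 CPM in sham and 3242 in DMM members, and 88508 and 78428 in the erythroid set. They summed to 518 and 167 CPM in the Pcp4 set described below, 2934 and 173 in the Casr set and 957 and 173 in the Serpina1e set. All 8 genes had a UMI in members. Of 6 endothelial markers, 4 (Cdh5, Emcn, Kdr and Tie1) were at 0 in both libraries, and the list summed to 8.51 and 7.45 CPM. The neutrophil list summed to 2.43 and 1.18 CPM, with Ltf and Mpo at 0 in both. The macrophage list summed to 13.1 and 10.2 CPM, with Adgre1, C1qa and Ptprc at 0 in both. The osteoblast list summed to 2793 CPM in sham and 6001 in DMM, most of it Ibsp, at 2179 and 4851 CPM. It summed to 3447 and 6333 CPM in the Casr set, above members in both libraries. In the Serpina1e set the sums were 4223 and 1386 CPM, and in the Pcp4 set 387 and 523.

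The Wif1 and Omd cells did not form a single cluster. When all kept cells without called doublets were clustered over both libraries, 26 clusters resulted. A cluster led by Msmp, Wif1, Chil1, Omd, Rbp4 and Frzb held 225 of the 527 members (42.7%), 110 of sham and 115 of DMM. Members were 20.2% [16.9, 23.8] of the 544 sham cells and 24.0% [20.2, 28.1] of the 479 DMM cells in that cluster. A cluster led by Tspan18, A2m and Serpina1a held 111 members. A cluster led by Pcp4, Rgs6 and Apoe held 55 sham and 25 DMM members. Smaller numbers lay in the clusters led by Casr (24), Nrgn, Tnni2 and Ihh (22) and Serpina1e (15).

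Most cells of the Msmp, Wif1 and Chil1-led cluster failed the rule through its exclusions. Over 1 UMI of Casr, Chst3 and Erg was present in 51.7% of its sham and 40.5% of its DMM cells. Col2a1 was under 500 CPM in 30.3% and 23.4%, and over 2 UMIs of Serpina1e, Inhba and Col10a1 were present in 19.1% and 31.1%. Fewer than 3 of the 6 markers were detected in only 12.9% and 14.2%. The rule thus took a Col2a1-positive portion of that cluster with few or no UMIs of the Casr and Serpina1e genes. It also took cells of other chondrocyte clusters.

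**Figure D2:**
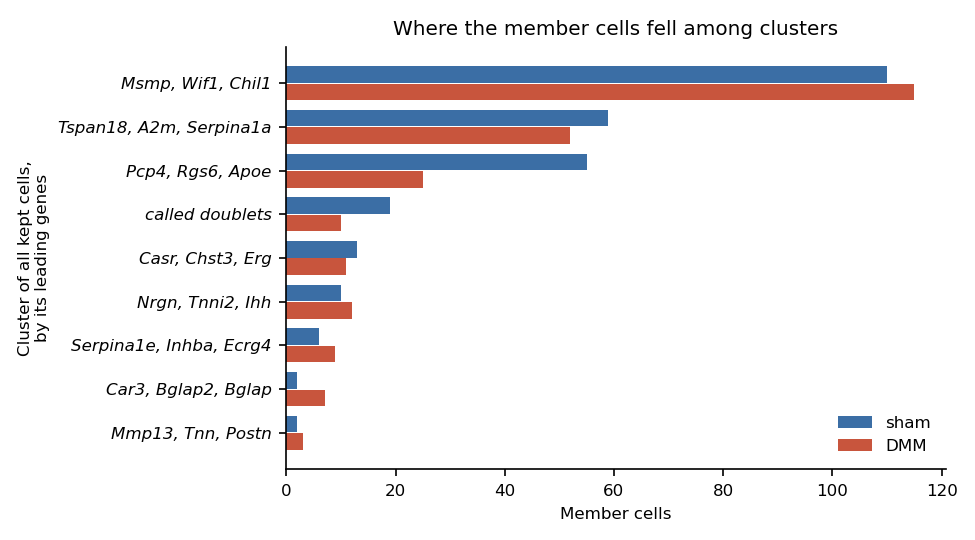
Number of member cells (horizontal axis) in each cluster of all kept cells that held 5 or more of them, by library, with called doublets as a group of their own; clusters are named by their 3 leading genes. The cluster led by Msmp, Wif1 and Chil1 holds 110 sham and 115 DMM members, fewer than the 527 members in all.

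Clustering the members alone gave 8 groups, whose leading genes describe how the cells varied. The largest, with 64 sham and 58 DMM cells, was led by Prg4, Cilp and Gas1. Prg4 stood at 30439 CPM there in sham and 23664 in DMM, against 355 and 343 CPM in the other members. Cilp, a protein of the middle layer of cartilage, stood at 7156 and 6151 CPM against 127 and 95.8. Cytl1 stood at 38844 and 36933 CPM in this group, and Wif1 at 2463 and 3852. Lubricin was thus carried by a subset of members. These cells were shallower than those of the next group, with medians of 5733 and 6068 UMIs against 14015 and 13133.

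The second group, with 57 sham and 44 DMM cells, was led by A2m (a protease inhibitor), Tagln and Rspo4 (a Wnt-enhancing ligand). A2m stood at 160 and 162 CPM, against 6.11 in other sham members. Wif1 was low in it, at 114 CPM in sham and 124 in DMM, beside 52.2 and 48.8 CPM in the erythroid set. Col2a1 was high, at 19782 and 20346 CPM.

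The third group, with 48 sham and 43 DMM cells, was led by R3hdml, Cthrc1 and Panx3. Panx3, a channel protein of prehypertrophic chondrocytes and osteoblasts, stood at 209 and 271 CPM against 68.6 and 56.1 in other members. The rule let such cells in because it allowed 1 hypertrophic gene. Col2a1 had its highest levels here, 31880 CPM in sham and 23448 in DMM, and Col12a1, a collagen on the surface of fibrils, stood at 3578 and 1963 CPM.

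The fourth group, with 32 sham and 45 DMM cells, was led by Spon1, Atp6v0a4, Wfdc2 and Sparcl1. Spon1, the matrix protein F-spondin, stood at 621 and 356 CPM against 61.0 and 27.4. Chil1, a secreted chitinase-like protein, stood at 2831 and 2592 CPM against 483 and 517. Wif1 stood at 2131 and 1734 CPM and Omd at 1052 and 1108, and 74 of these 77 cells lay in the Msmp, Wif1 and Chil1-led cluster. Prg4 was low in it, at 162 and 350 CPM, so Wif1 and Omd were high here without lubricin.

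The fifth group, with 51 sham but 21 DMM cells, was led by Ly6a (Sca-1, a progenitor surface protein), Pcp4, Pthlh and Rgs6. Pthlh, the parathyroid hormone-like signal that holds back hypertrophy, stood at 116 and 88.1 CPM against 7.18 and 6.18 in other members. Of its 72 cells, 58 lay in the Pcp4-led cluster.

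Of 3 small groups, 1 was led by Col1a1, Clec3b and Col1a2 (8 sham and 17 DMM cells). Its Col1a1 level was 11980 CPM in sham and 21739 in DMM, and Scrublet had called 10 of its 25 cells doublets. Another, of 9 sham and 13 DMM cells, was led by Msmp, Cp and Cytl1. Msmp stood at 39098 and 5966 CPM there. The last, of 13 sham and 4 DMM cells, was led by Car2, Hba-a1, Rhd and Hist1h1b, erythroid and histone genes, with Hbb-bs at 34384 and 60813 CPM. Of its 17 cells, 12 were called doublets. The Col1a1-led and Car2-led groups are left out below where a result rests on them, which leaves 261 sham and 224 DMM members, 5 and 2 of them called doublets.

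**Figure D3:**
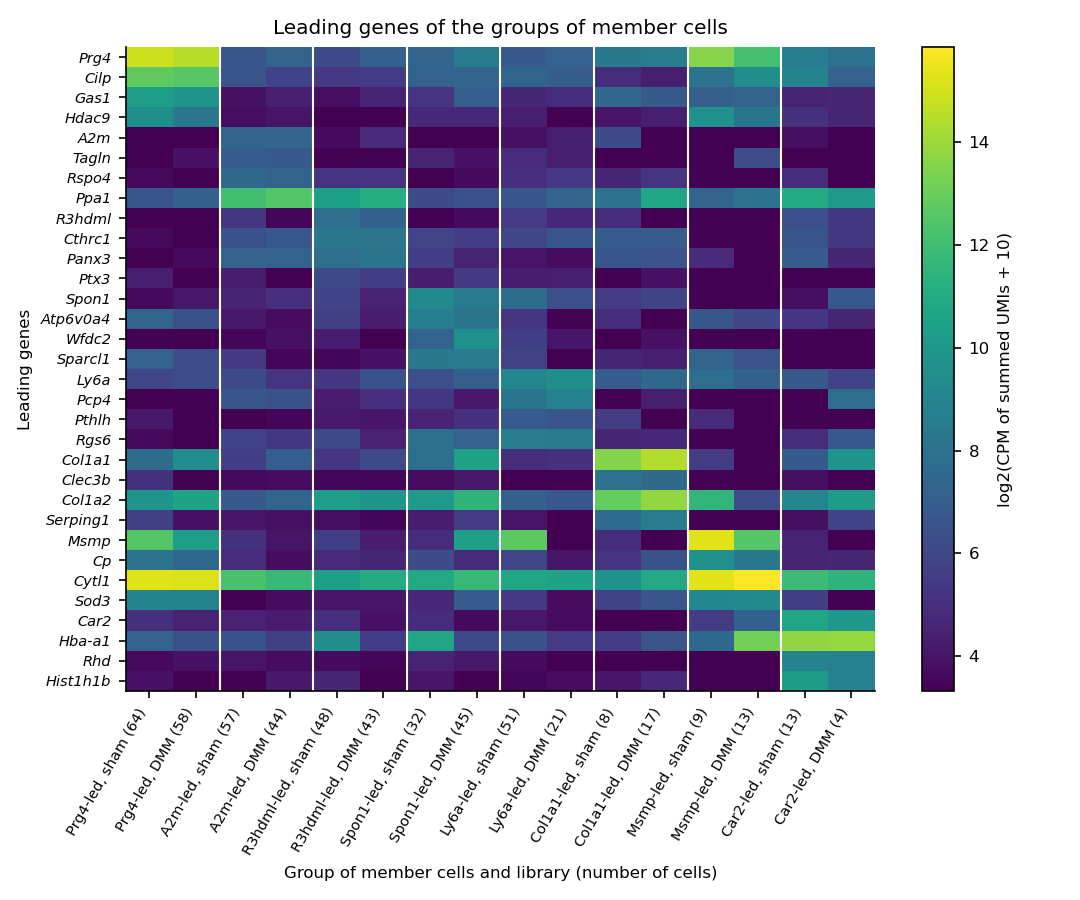
Level of the leading genes (rows) in each group of member cells by library (columns, number of cells in brackets), as log2 of the CPM of summed UMIs plus 10 on the colour scale. Prg4 and Cilp are high in the first group, Col1a1 in the Col1a1-led group and Hba-a1 in the Car2-led group.

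Members were set beside 3 kinds of chondrocytes chosen by similar rules. The Casr set (208 sham and 122 DMM cells) and the Serpina1e set (90 and 123) had genes of superficial chondrocytes, and the Pcp4 set (435 and 296) had at least 2 of Pcp4, Rgs6 and Pax1. Since measured genes chose every set, these differences are descriptions. A gene counted as higher or lower past 2-fold in both libraries with both counting intervals on that side, a rule of size. Against the Casr set, 496 of 9700 genes were higher (5.11%) and 282 lower (2.91%). Against the Serpina1e set, 244 of 9437 were higher (2.59%) and 199 lower (2.11%). Against the Pcp4 set, 424 of 11026 were higher (3.85%) and 133 lower (1.21%).

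Neither Wif1 nor Cytl1 was highest in the members. Wif1 stood at 1631 CPM in sham and 1926 in DMM in the Casr set and at 1163 and 1396 in the Serpina1e set, above the 824 and 1244 CPM of members. In the Pcp4 set it was 16.3 CPM in both libraries. Cytl1 stood at 30991 and 32561 CPM in the Casr set and at 28256 and 35607 in the Serpina1e set, far above members. Frzb stood at 136 and 153 CPM in the Casr set, and Gdf6 at 22.3 and 26.3. Omd was higher in members than in these 3 sets, which had 229 and 354 CPM (Casr), 249 and 188 (Serpina1e) and 106 and 92.3 (Pcp4). After thinning to 4000 UMIs, Omd had a UMI in 57.4% of sham and 67.4% of DMM members, against 26.8% and 27.8% of the Casr set. Of the 6 marker genes, Omd was the one above all 3 sets in both libraries. This did not hold for the uneven Msmp, in DMM at 552 CPM in members, 589 in the Casr set and 555 in the Serpina1e set. Omd counted towards the rule of the members and not towards those of the 3 sets. Its higher level and detection, also after thinning, therefore describe the selection and are no separate trait of the members.

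Prg4 was lower in members than in the superficial sets. It stood at 3832 and 3903 CPM in members, 29897 and 36997 in the Casr set, 23307 and 34779 in the Serpina1e set, and 153 and 215 in the Pcp4 set. Of the superficial list, against the Casr set, 8 of its 15 measured genes were lower and 1 (Sema3c) higher, against 2.91% and 5.11% of all genes. Those lower included Clu, Abi3bp, Vit, Ntn1 and Has1, genes of the joint surface. Against the Pcp4 set, 5 were higher (Prg4, Dkk3, Ntn1, Clu and Abi3bp) and none lower, against 3.85% and 1.21% of all genes. Against the Serpina1e set, 3 of 15 were lower (Prg4, Sema3e and Clu) and 2 higher (Thbs1 and Dkk3), against 2.11% and 2.59% of all genes.

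Beyond the rule's own genes, secreted matrix proteins were among those higher in members. By the smaller of both libraries' ratios to the 3 sets pooled, haemoglobin genes and Spon1, Olfml3, Col1a1, Car8, Tnn and Chil1 led. Chil1 stood at 690 CPM in sham and 812 in DMM, against 142 and 228 pooled, a log2 ratio of 2.28 [2.18, 2.38] and 1.83. Spon1 stood at 110 and 74.1 CPM against 18.9 and 11.5. Olfml3, a secreted olfactomedin-domain protein, stood at 131 and 172 CPM, log2 ratios of 2.38 and 2.16 to the pooled sets. In the fibrous cells with Angptl7, Slurp1 and Nox4, Olfml3 stood at 255 and 167 CPM and Spon1 at 57.1 and 33.7. Olfml3 was thus not particular to members. Lum, the proteoglycan lumican, stood at 592 and 1022 CPM against 202 and 323. Tnn, tenascin-N of bone and tendon margins, stood at 65.0 and 70.2 CPM against 16.2 and 15.6, but the Casr set alone had 46.3 and 34.2 CPM of it. Ibsp, bone sialoprotein, stood at 2179 and 4851 CPM against 1037 and 1371 pooled. The Casr set alone was above members, at 3119 and 5942 CPM of Ibsp. In the Serpina1e set it was 3365 and 1137 CPM, and in the Pcp4 set 18.5 and 9.12.

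The levels of Chil1, Spon1, Lum and Olfml3 differed little without the Col1a1-led and Car2-led groups, while those of Col1a1 and haemoglobin did. Without the groups, Chil1 was 746 and 884 CPM, Spon1 122 and 75.5, Lum 561 and 957, and Olfml3 128 and 173. Col1a1 was 72.7 CPM in sham and 391 in DMM, beside 112 and 456 in the pooled sets, from which no cells were left out. In DMM, 1 cell held 53.6% of the Col1a1 UMIs of the Casr set and 1 cell 65.7% of those of the Serpina1e set. The order of members and pooled sets in DMM therefore cannot be read from these levels. Hbb-bs was 3674 and 2512 CPM in all members and 1359 and 1098 without the groups, against 752 and 117 in the pooled sets. Of the UMIs left without the groups, 1 cell held 46.0% in sham and 89.1% in DMM. In the members of the Msmp, Wif1 and Chil1-led cluster alone, Chil1 was 1350 and 1258 CPM, Spon1 275 and 152, and Sparcl1, a matricellular protein, 183 and 159. In that cluster Omd reached 755 and 1091 CPM.

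The genes lowest in members were rule genes (Col10a1, Serpina1e, Inhba and Erg), followed by Medag, Lgr6, Sema3e, Prg4, Penk and Gas1. Lgr6, an R-spondin receptor, stood at 34.3 and 34.9 CPM in members against 85.9 and 94.1 in the pooled sets. Gas1, a hedgehog co-receptor, stood at 163 and 177 CPM against 348 and 462, although the Pcp4 set alone had 19.3 and 14.4.

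**Figure D4:**
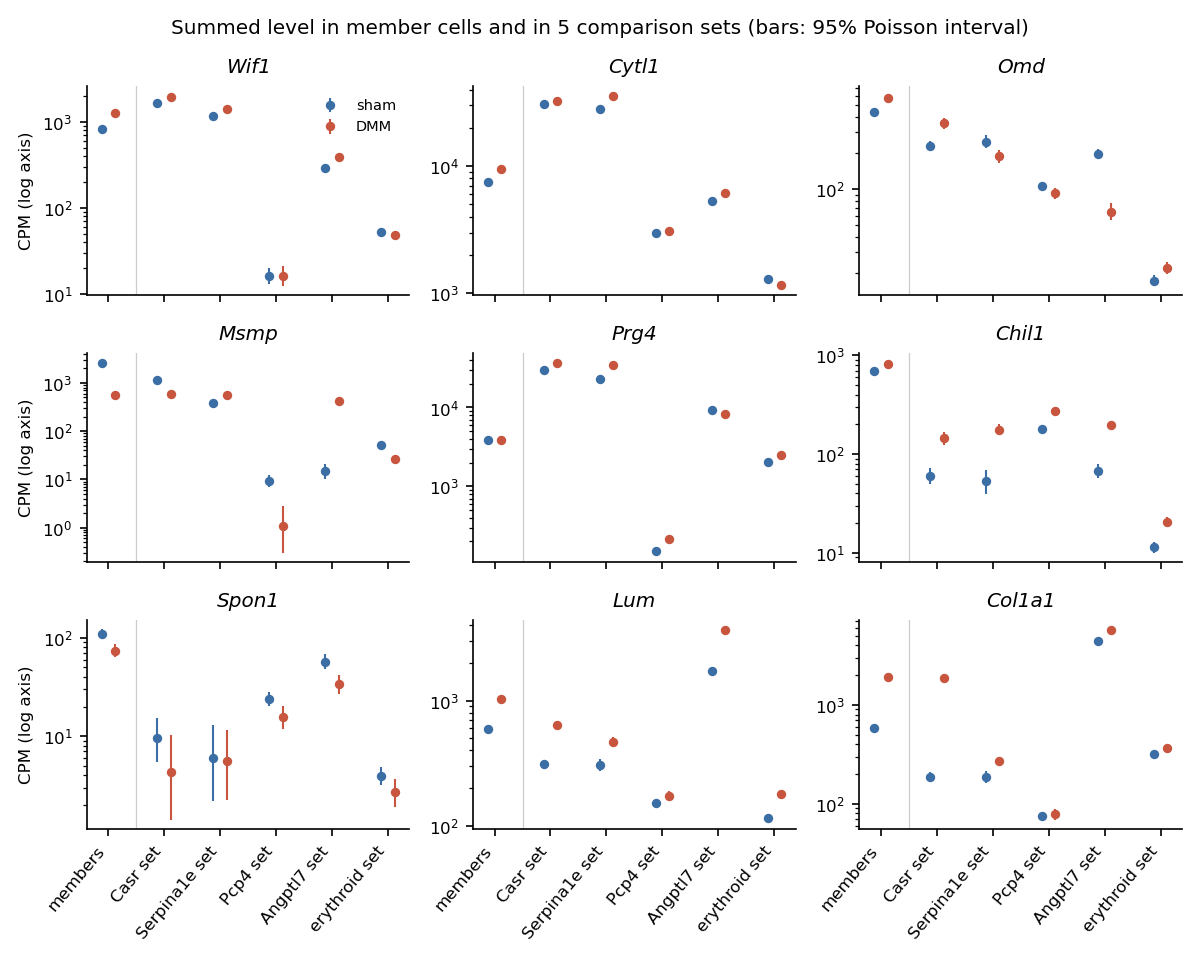
Level of 9 genes (vertical log axes, CPM of summed UMIs; bars are 95% Poisson intervals of counting error) in members and 5 comparison sets, sham and DMM. Wif1, Cytl1 and Prg4 are higher in the Casr and Serpina1e sets than in members. Omd, a gene of the rule, and Chil1, Spon1 and Lum are higher in members than in the Casr, Serpina1e and Pcp4 sets.

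The place of members among the 3 sets differed from list to list. Over all genes, 5.11% were higher and 2.91% lower against the Casr set. These shares were 2.59% and 2.11% against the Serpina1e set, and 3.85% and 1.21% against the Pcp4 set. A count of 1 or 2 genes in lists this short is a description and no result about the list. Of the cartilage matrix list, 6 of 20 measured genes were higher than in the Casr set (Col9a1, Col9a2, Matn3, Matn4, Epyc and Cnmd) and 2 lower (Cilp and Cilp2). Against the Pcp4 set, Cilp and Cilp2 were the 2 higher of 21. Among Wnt inhibitors, 5 of 9 were higher than in the Pcp4 set: Wif1, Frzb, Sfrp2, Dkk3 and Sfrp5, of which Wif1 and Frzb belong to the rule and Sfrp2 in sham came almost wholly from 1 cell. Against the Casr set only Sfrp2 of 8 was higher. Among Wnt ligands, receptors and targets, 6 of 19 were higher than in the Casr set (Fzd7, Lef1, Wnt4, Wnt5a, Wnt5b and Rspo3) and 2 lower (Lgr6 and Wnt9a). Against the Pcp4 set, 6 of 19 were higher (Lgr6, Fzd1, Fzd8, Fzd9, Wnt5a and Lrp5) and 1 lower (Rspo3). Among BMP and activin ligands, 4 of 14 were lower than in the Casr set (Bmp2, Bmp4, Bmp6 and the rule gene Inhba) and 2 higher (Tgfb2 and Bmp7). Of the mineral and hypertrophy list, 7 of 15 were higher than in the Casr set, among them the osteoblast transcription factors Runx2 and Sp7, the collagenase Mmp13 and the calcification inhibitor Mgp. None of that list was lower. Against the Pcp4 set, 4 of 15 were higher (Bglap2, Ibsp, Spp1 and Mef2c) and none lower. Against the Serpina1e set 1 of 16 was higher (Mgp) and 2 lower, the rule genes Ihh and Col10a1. The rule limited both genes in members and the Serpina1e set had no limit on Ihh, so these 2 describe the selection.

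Members took similar shares of both libraries. They were 2.82% [2.51, 3.17] of kept sham cells and 2.48% [2.18, 2.80] of kept DMM cells. The log2 ratio of DMM to sham was -0.19 [-0.44, 0.06]. Of cells with Col2a1 of 500 CPM or more, they were 6.64% [5.91, 7.43] and 7.35% [6.49, 8.29], with a log2 ratio of 0.15. The order of the libraries thus depended on the denominator. The Msmp, Wif1 and Chil1-led cluster was 5.71% [5.25, 6.19] of clustered sham cells and 5.03% [4.60, 5.48] of clustered DMM cells.

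DMM and sham members were then compared gene by gene. A gene counted as higher or lower past 1.5-fold with an interval without 1, again a rule of size. Of 8476 genes with at least 50 UMIs, 224 were higher in DMM (2.64%) and 1164 lower (13.7%). The median log2 ratio over all of them was -0.18. With median-of-ratios scaling, which adds 0.14 to every log2 ratio, 521 were higher and 612 lower, so the lean towards lower genes depends on the scaling. Without the Col1a1-led and Car2-led groups, 242 were higher and 934 lower. Genes lower in DMM were long, with a median span of 63.3 kb against 30.0 kb over the tested genes and 8.67 kb for higher genes. The part that gene length played in these ratios was not tested. Depth differed as well, as given above.

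Among the genes of the rule, Wif1 was higher in DMM members and Msmp lower. Wif1 stood at 824 CPM in sham and 1244 in DMM, a log2 ratio of 0.60 [0.52, 0.67], and 0.59 without the 2 groups. It was 2463 and 3852 CPM in the Prg4-led group, 114 and 124 in the A2m-led group and 436 and 666 in the R3hdml-led group. In the Spon1-led group it was 2131 and 1734 CPM, and in the Ly6a-led group 702 and 275. Its level was thus higher in DMM in 3 of the 5 largest groups and lower in the other 2, and the Ly6a-led group also held fewer DMM cells. In the Casr and Serpina1e sets its log2 ratios were 0.24 and 0.26. The log2 ratios of Omd, Cytl1 and Frzb were 0.39, 0.34 and 0.26, short of 1.5-fold. Msmp had a log2 ratio of -2.24 [-2.32, -2.15], and -1.77 without the highest cell of each library. It is the gene that few cells carried.

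Mineral matrix genes were higher in DMM members. Of the mineral and hypertrophy list, 5 of 14 measured genes passed the size rule upwards (Spp1, Ibsp, Alpl, Bglap and Bglap2) and 2 downwards (Enpp1 and Ank), against 2.64% and 13.7% of all genes. The list's median log2 ratio was 0.31, beside -0.18 over all genes. Spp1, osteopontin, stood at 242 CPM in sham and 2008 in DMM, an 8.28-fold difference [7.68, 8.93]. It had a UMI in 28.7% and 46.9% of members, and the highest cell held 17.0% and 8.75% of its UMIs. Ibsp stood at 2179 and 4851 CPM, a 2.23-fold difference [2.16, 2.29]. Alpl, the alkaline phosphatase of mineralising cells, stood at 205 and 466 CPM, a 2.27-fold difference [2.07, 2.50], with a UMI in 50.4% and 66.5% of members. Enpp1 and Ank, which supply the mineralisation inhibitor pyrophosphate, stood at 321 and 595 CPM in sham and at 214 and 370 in DMM.

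These differences were not even over the member groups. Spp1 stood at 528 CPM in sham and 5804 in DMM in the Prg4-led group, and at 200 and 1301 in the Spon1-led group. In the R3hdml-led group it stood at 211 and 192 CPM, and in the Ly6a-led group at 85.1 and 24.7. Counting the 5 largest groups equally gave a log2 ratio of 0.95, against 3.05 over all members. Among these 5 groups, the difference lay mainly in the Prg4-led and Spon1-led ones. The Col1a1-led and Car2-led groups together also held part of it. Without them Spp1 stood at 174 CPM in sham and 1265 in DMM, against 242 and 2008 in all members. Ibsp stood at 6885 and 12156 CPM in the Prg4-led group and at 2425 and 2521 in the R3hdml-led group, and its equally weighted log2 ratio was 0.39 against 1.15. Without the Col1a1-led and Car2-led groups the log2 ratio of Spp1 was 2.86, and in members of the Msmp, Wif1 and Chil1-led cluster 3.52. Bglap2, an osteocalcin gene, stood at 112 and 360 CPM in all members, but 49.2% of its DMM UMIs came from 1 cell, and its log2 ratio of 1.68 was 0.51 without the 2 groups. Bglap and Bglap2 are near-identical copies, so their counts could be split between them.

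Among fibrous collagens, 3 were higher in DMM and 2 lower. Of 15 measured genes of the fibrous matrix list, Col1a1, Col1a2 and Col3a1 were higher and Col12a1 and Col14a1 lower. Over all genes 2.64% were higher and 13.7% lower, and the 2 lower of 15 were close to that share. The list's median log2 ratio was -0.16, close to all genes. Col3a1, type III collagen, stood at 96.3 CPM in sham and 367 in DMM, a log2 ratio of 1.93 [1.75, 2.12], with a UMI in 20.9% and 39.2% of members. In the Spon1-led group it stood at 58.6 and 959 CPM. Col1a1 had a log2 ratio of 1.74 [1.66, 1.81] over all members, 3.18 without the highest cell of each library and 2.43 without the 2 groups. Col1a2 had a log2 ratio of 1.06 [1.00, 1.13], and 0.61 without them. The erythroid set, where these genes can come from free RNA or from doublets, had Col1a1 at 317 and 370 CPM and Col3a1 at 163 and 265. Outside the Col1a1-led group, sham members were thus below that level of Col1a1 and DMM members near it, and the part of free RNA in the ratio was not tested. Col12a1 stood at 1625 CPM in sham and 1049 in DMM.

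Small leucine-rich proteoglycans leaned upwards. Dcn (decorin) and Lum were higher among 11 measured and none was lower, against 2.64% and 13.7% of all genes. The median log2 ratio was 0.12. Dcn stood at 2184 CPM in sham and 4392 in DMM, a log2 ratio of 1.01 [0.96, 1.05], and 1.04 without the 2 groups. Lum stood at 592 and 1022 CPM, a log2 ratio of 0.79 [0.70, 0.87]. Both genes also had positive ratios in the Casr set (0.83 and 1.03) and the Serpina1e set (0.73 and 0.61), and smaller ones in the Pcp4 set (0.28 and 0.20).

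The cartilage matrix itself showed no gene past the size rule. None of 20 measured genes was higher or lower, against 2.64% and 13.7% of all genes, and their median log2 ratio was -0.16. Col2a1 stood at 15805 CPM in sham and 13952 in DMM, Acan at 2462 and 2216 and Comp at 3466 and 4326. Prg4 stood at 3832 CPM [3765, 3899] in sham and 3903 [3827, 3981] in DMM, with overlapping intervals.

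Signalling genes past the size rule were mostly lower in DMM, as were genes in general, with 13.7% of all genes lower and 2.64% higher. Counts of so few genes in short lists are descriptions and no result about signalling. Of Wnt ligands, receptors and targets, 3 of 17 were lower (Fzd7, Lgr4 and Wnt11). Of BMP ligands, 2 of 11 were lower (Bmp5 and Bmp6), and Inhba, a rule gene at 9.72 and 16.1 CPM, was higher. Of 17 BMP receptors, antagonists and targets, 2 were lower: the receptor Bmpr2, at 235 and 144 CPM, and the inhibitory Smad6, at 18.5 and 11.8. The 1 higher was Id3, a direct BMP target, at 224 and 353 CPM, a log2 ratio of 0.65 [0.51, 0.80]. Of the hedgehog and PTHrP list, 3 of 11 were lower (Gli2, Hhip and Pthlh). Of chondrocyte transcription factors, 2 of 18 were lower: Sox6, a partner of Sox9, at 692 CPM in sham and 428 in DMM, and Pax1 at 196 and 118. Of enzymes and inhibitors of matrix breakdown, Mmp2 and Timp1 were higher and Mmp3 and Mmp16 lower among 17.

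Energy metabolism leaned upwards by small ratios. The median log2 ratio of 24 oxidative phosphorylation genes was 0.32, with Ndufa2 the 1 gene past the size rule. The same list had medians of 0.40 in the Casr set, 0.45 in the Serpina1e set and 0.39 in the Pcp4 set. Glycolysis and hypoxia genes had a median of 0.12, and Tpi1 and Ankrd37 were higher among 22, against 2.64% of all genes.

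The 10 highest ratios by the naming rule were those of Spp1, Wfdc2, Col3a1, Col1a1, Bglap2, Lgals1, Alpl, Ibsp, S100a4 and Col1a2. Wfdc2, a secreted protease inhibitor-like protein, stood at 23.4 CPM in sham and 114 in DMM but had a UMI in only 7.09% and 9.39% of members. In the Spon1-led group it stood at 148 and 786 CPM, and in the other DMM members at 2.74. S100a4, a calcium-binding protein, stood at 121 and 260 CPM, and at 193 and 857 in the Spon1-led group. Lgals1, galectin-1, stood at 32.2 and 86.7 CPM, a log2 ratio of 1.43 [1.09, 1.78].

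The 10 lowest were Mki67, Hist1h1b, Msmp, Slc25a21, Hist1h1e, Car2, Slc26a7, Resf1, Pola1 and Cpox. Hist1h1b and Car2 were leading genes of the Car2-led group of 13 sham and 4 DMM members, where Mki67 stood at 962 and 332 CPM. Mki67, a proliferation marker, stood at 82.6 CPM in sham and 12.6 in DMM members and at 1317 and 825 in the erythroid set. Its log2 ratio of -2.72 [-3.30, -2.19] was -1.45 without the 2 groups. Car2, carbonic anhydrase of red cells, had a log2 ratio of -1.91, and -0.57 without them. Cpox, an enzyme of haem synthesis, had -1.41, and -0.30 without them. The cell cycle list gave 7 of 12 lower, against 13.7% of all genes. Its median was -1.03, and -0.17 without the 2 groups.

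Resf1 and Slc26a7 did not follow that group. Resf1, a regulator of retroelement silencing, stood at 395 CPM in sham and 141 in DMM, with a log2 ratio of -1.49 [-1.66, -1.32], and -1.49 without the 2 groups. It was a leading gene of the A2m-led group, at 950 and 373 CPM there. Slc26a7, an anion transporter, had a log2 ratio of -1.76, and belonged to the Ly6a-led group of 51 sham and 21 DMM cells, where it stood at 213 and 81.0 CPM.

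**Figure D5:**
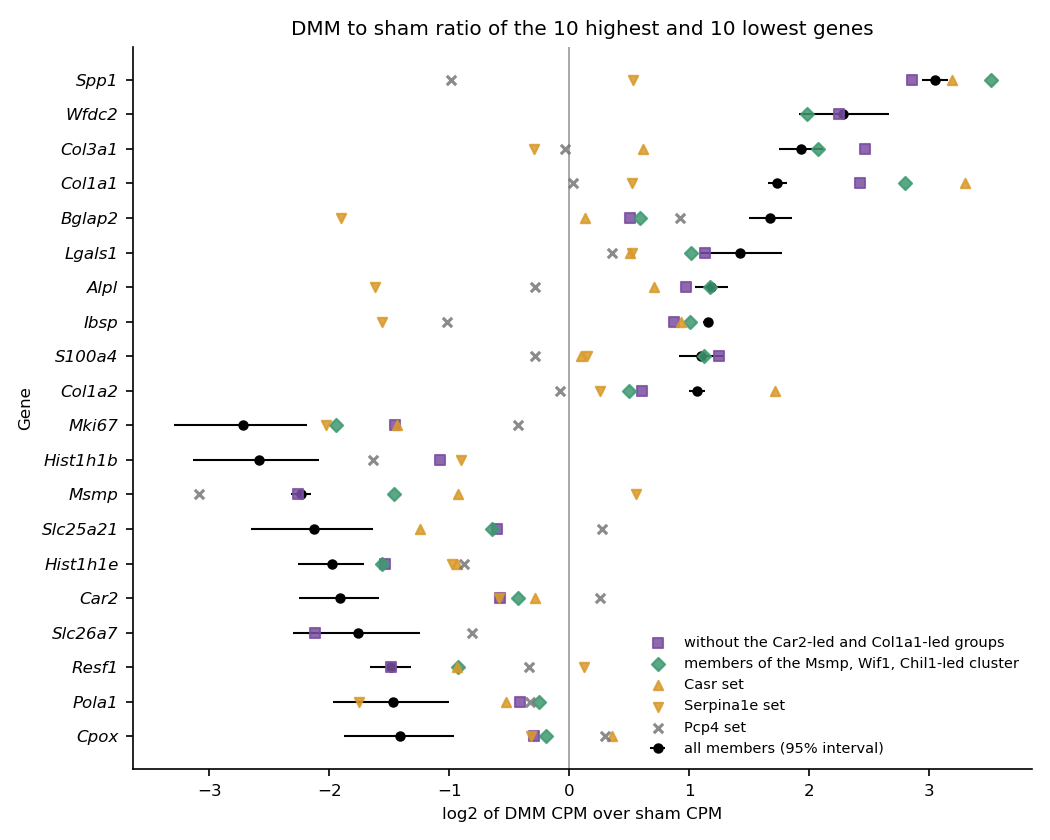
Log2 ratio of DMM to sham level (horizontal axis) of the 10 highest and 10 lowest named genes: all members (black, with 95% intervals of counting error), members without the Car2-led and Col1a1-led groups, members of the Msmp, Wif1 and Chil1-led cluster, and 3 comparison sets; sets with under 20 UMIs of a gene have no point. Spp1 is at 3.05 in all members, 3.20 in the Casr set and -0.99 in the Pcp4 set, and Mki67 moves from -2.72 to -1.45 without the 2 groups.

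The same ratios were set beside those of the comparison sets. Of the 17 named genes with at least 20 UMIs in the Casr set, 9 were higher there and in members, 7 lower in both, and 1 differed in direction. In the Serpina1e set 5 were higher in both and 6 lower in both, of 17. In the Pcp4 set 3 were higher in both and 7 lower in both, of 19. Spp1 had log2 ratios of 3.20 in the Casr set, 0.53 in the Serpina1e set and -0.99 in the Pcp4 set. Ibsp had 0.93, -1.56 and -1.02, and Alpl 0.71, -1.62 and -0.28. Col1a1 had 3.30, 0.53 and 0.04, though 1 cell held 53.6% of its DMM UMIs in the Casr set. These contrasts between sets were not tested.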

How the data were processed

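Single-cell RNA was measured in 1 sham and 1 DMM library. Deposited gene by cell matrices hold UMI counts (whole numbers, not normalized). The matrix header names cellranger 7.1.0 and the submitters' processing notes name Cell Ranger 3.0.1 and mm10, with Seurat, so the version is uncertain. A bulk table deposited with the series has 6 per-sample columns that match no sample and was not analysed here. Totals over all barcodes were 106799078 UMIs (11362 barcodes) in sham and 97346999 (11076) in DMM.

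Barcodes were kept from 500 detected genes upwards if mitochondrial genes gave no more than 10% of UMIs. UMIs were summed over the cells of a set and library and divided by the set's total (CPM). Levels have exact Poisson intervals, DMM to sham ratios exact conditional binomial intervals and shares Clopper-Pearson intervals, all 95%. They cover counting error only. Genes needed at least 50 UMIs. Clustering used scanpy 1.11.5 (2000 variable genes, 30 components, 15 neighbours, Leiden resolution 1, called doublets left out). Members were clustered alone with 20 components at resolution 0.8. Called doublets remained in the member set. The ratio intervals and the size rule for DMM against sham were tested on simulated Poisson counts. Variation between cells, the member rule, thinning and clustering were not simulated.

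Named genes were the rule's genes, list members by level or ratio, the 10 highest and 10 lowest DMM to sham ratios (100 or more UMIs, 50 or more CPM in whichever library was higher, same direction under median-of-ratios scaling and without the highest cell), and the 25 highest and 10 lowest ratios to the pooled sets, for which 50 CPM in the higher set was asked in both libraries. Members, lists and comparison sets were chosen with earlier results of these data known. Alternatives changed 1 choice at a time. Gene spans and coordinates came from the GRCm38 annotation.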

Additional observations from a re-analysis of the deposited data

Results flagged for a closer look

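Several mineral matrix genes had DMM to sham ratios of opposite direction in the members and in a comparison set, with counting intervals on either side of equal levels. The differences between sets were not tested, since each group is 1 library. In members, the log2 ratios were 1.68 for Bglap2, 1.18 for Alpl, 1.15 for Ibsp and 3.05 for Spp1. In the Serpina1e set, the log2 ratio was -1.90 for Bglap2, -1.62 for Alpl and -1.56 for Ibsp. In the Pcp4 set it was -0.99 for Spp1 and -1.02 for Ibsp, which there rested on 110 sham and 33 DMM UMIs. A single sham cell held 50.4% of the Bglap2 UMIs of the Serpina1e set, and a single DMM member 49.2%.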

How the results depend on the processing

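No paired analysis was possible because each group is 1 library, and no replicate could be left out for the same reason. Requiring at least 4 markers gave shares of 1.01% in sham and 0.971% in DMM, 724 genes lower in DMM, and 244 higher and 168 lower than the Casr set and 281 lower than the Pcp4 set. Bglap2 then turned to a log2 ratio of -1.08. Requiring both Wif1 and Gdf6 left shares of 0.15% and 0.131%, with 95 genes higher and 75 lower in DMM. It gave 27 higher and 48 lower than the Casr set, 59 and 119 for the Serpina1e set and 273 and 402 for the Pcp4 set. Of Col2a1 cells, members were 6.64% and 7.35% (log2 ratio 0.15), and after thinning to 4000 UMIs the DMM share was 2.82%. Median-of-ratios scaling gave 521 higher and 612 lower in DMM, leaving out the 20 most abundant genes 414 and 695, and the mean of each cell's CPM 394 higher. With at least 200 UMIs, fewer genes were tested: 83 higher and 484 lower in DMM, 293 and 174 for the Casr set, 124 and 115 for the Serpina1e set and 186 and 69 for the Pcp4 set. Alternatives chosen after seeing the data were as follows. Members of the Msmp, Wif1 and Chil1-led cluster gave 676 lower in DMM, 190 higher and 162 lower than the Casr set, and 610 lower than the Pcp4 set. Counting the 5 largest groups equally gave 372 higher, and Wfdc2 turned to a log2 ratio of -0.36. Apart from Bglap2 and Wfdc2 under these settings, the 20 genes named by their ratio kept their sign under the alternatives that gave a value, but some came close to 0. S100a4 was 0.0020 with the 5 largest groups counting equally. With Wif1 and Gdf6 both required, S100a4 was 0.017, Resf1 -0.099, Col1a1 0.16 and Spp1 0.30. Where not stated, the cause was not tested. Low counts limit single groups: 16 sham and 14 DMM members had any Gdf6.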
